A study of Mus musculus with 6 samples.

Results

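Mitochondrial ribosomal proteins are encoded in the nucleus, made in the cytosol and imported into mitochondria, where they assemble on mitochondrially encoded rRNA into the ribosome that makes core subunits of the respiratory chain. Genes of the large subunit carry symbols starting with Mrpl, and genes of the small subunit carry symbols starting with Mrps. The members described here were all genes in the count table whose symbol is Mrpl or Mrps followed by a number, with pseudogenes left out. There were 78 such genes of 31017 in the table, 49 Mrpl and 29 Mrps. The rule reads symbols only and no measured value. A few structural proteins of this ribosome carry other symbols and are described apart.

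The study sequenced RNA from mouse Th17 cells, the interleukin 17 secreting helper T cells, made in culture. The control group (genotype WT, 3 libraries) was compared with the RTF1-deficient group (genotype KO, 3 libraries). RTF1 is a nuclear protein that travels with RNA polymerase II and the PAF1 complex and promotes ubiquitination of histone H2B. The labels give neither the allele or the agent that removed RTF1, nor mouse strain, age or length of culture. Whether a library came from 1 animal is not stated either. The p-values measure the spread between these libraries, which may in part be technical.

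Mitochondrial ribosomes differ from those of the cytosol in having lost rRNA and gained protein. Some members have counterparts in bacterial ribosomes and others are found only in mitochondrial ribosomes. Several members sit in a different place from the one their symbol gives: the proteins of Mrps18a and Mrps30 belong to the large subunit, and that of Mrps36 is an adaptor of the oxoglutarate dehydrogenase complex and is no longer counted as ribosomal. ETS-family factors (GABP), NRF1 and YY1 are known regulators of nuclear genes for mitochondrial proteins, and MYC, which binds E-boxes, is another.

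The promoters of 4 members are shown to set out what stood at the starts of members that moved in opposite directions: Mrps36 and Mrpl23, which were lower in KO, and Mrpl33 and Mrpl10, which were higher. They belong to the 2 members with the largest decrease and the 2 with the largest increase among called members with exactly 1 promoter in the table used. Each is 300 bases, from 250 before the annotated start to 50 after it, 5′ to 3′ on the strand of the gene, from RefSeq on GRCm38.p6. Capitals mark matches to GCATGCG (NRF1) or CCGGAAG (ETS) on either strand. Mrps36 lies at chr13:100744610-100744909 on the minus strand, and Mrpl23 at chr7:142532782-142533081, Mrpl33 at chr5:31613701-31614000 and Mrpl10 at chr11:97041332-97041631 on the plus strand.
Mrps36: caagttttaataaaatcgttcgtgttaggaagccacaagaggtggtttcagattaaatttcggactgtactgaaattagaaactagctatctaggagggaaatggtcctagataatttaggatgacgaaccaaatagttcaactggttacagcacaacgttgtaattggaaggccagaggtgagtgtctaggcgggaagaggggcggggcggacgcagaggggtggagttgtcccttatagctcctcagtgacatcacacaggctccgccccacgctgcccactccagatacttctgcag
Mrpl23: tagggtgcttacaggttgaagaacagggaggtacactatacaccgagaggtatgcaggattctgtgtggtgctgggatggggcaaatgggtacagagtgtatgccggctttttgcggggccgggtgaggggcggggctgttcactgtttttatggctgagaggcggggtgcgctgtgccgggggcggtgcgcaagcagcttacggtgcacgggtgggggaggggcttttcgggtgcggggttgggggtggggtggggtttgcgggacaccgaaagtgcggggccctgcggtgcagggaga
Mrpl33: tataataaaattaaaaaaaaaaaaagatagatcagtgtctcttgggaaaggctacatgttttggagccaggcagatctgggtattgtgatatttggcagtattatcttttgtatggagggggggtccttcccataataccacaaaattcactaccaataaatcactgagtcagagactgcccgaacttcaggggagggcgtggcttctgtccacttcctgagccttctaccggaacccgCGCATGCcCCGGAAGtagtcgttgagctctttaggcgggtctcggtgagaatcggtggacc
Mrpl10: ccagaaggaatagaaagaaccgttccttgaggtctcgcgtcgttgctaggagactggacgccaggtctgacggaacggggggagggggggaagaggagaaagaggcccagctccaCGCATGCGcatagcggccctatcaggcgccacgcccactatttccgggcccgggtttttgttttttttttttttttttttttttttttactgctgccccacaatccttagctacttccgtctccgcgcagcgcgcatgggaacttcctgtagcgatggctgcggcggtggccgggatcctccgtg
The Mrpl33 promoter held an NRF1 match starting at position -11 from the start and an ETS match at -3, separated by 1 base. The Mrpl10 promoter held an 8-letter palindrome that matched the NRF1 motif on both strands, at -135 and -134. The letters of the 4 motifs searched (NRF1, ETS, E-box CACGTG and YY1 AGATGGC) were not in the Mrps36 and Mrpl23 windows. All matches are descriptions of letters and not of bound sites.

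Over all members, 69 genes had at least 1 promoter in the table, 75 promoters in total. The ETS letters were in 26 of the 75 member promoters (34.7%), against 8.86% of all 32851 promoters and 16.9% of the promoters of the genes tested. The NRF1 letters were in 8 (10.7%, against 3.58% of all and 6.06% of tested), YY1 in 12 (16.0%, against 6.40% and 7.02%) and the E-box in 7 (9.33%, against 7.15% and 9.74%). By the calls given further on, the ETS letters were in 9 of 27 promoters of members that fell, 3 of 5 of members that rose and 13 of 42 of members that were not called. In the same order, the NRF1 letters were in 1, 2 and 5 and the YY1 letters in 2, 0 and 10. The E-box stood in 7 promoters of members that were not called and in 0 of the called ones.

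The shallowest library, control replicate 1, held 16489813 counts and the deepest, control replicate 2, held 51271226. Levels are in CPM, read counts put on a common library total with TMM factors, and ± gives the SD between the 3 libraries of a group. Rtf1 had 94.0, 91.2 and 88.3 CPM in control replicates 1, 2 and 3 and 45.3, 30.4 and 26.2 CPM in KO replicates 1, 2 and 3, so that the KO mean was 37.2% of control (log2 fold change -1.425, SE 0.19, edgeR adjusted p = 0.000755). T helper markers summed to 2588 to 3135 CPM in control and 1423 to 1979 CPM in KO, and 4 of 8 (Cd4, Il17a, Il17f and Il23r) were lower and Cd3e higher. Summed myeloid markers were 2.58 to 5.20 CPM in control and 16.9 to 28.6 CPM in KO, mostly Cd68. Of the 3 tested, Cd68 and Csf1r (0.36 ± 0.13 to 1.18 ± 0.54 CPM) were called higher. Cd14 was not called (log2 fold change 1.36, edgeR adjusted p = 0.0646). Lyz2, too low to be tested, had 0, 2 and 4 reads in control and 46, 11 and 8 in KO. Itgam, Adgre1 and Fcgr1 were close to 0. Summed B cell markers were 1.24 to 3.18 CPM in control and 1.82 to 2.89 CPM in KO, and 1 of the 2 tested, Cd79b, was lower (0.60 ± 0.31 to 0.16 ± 0.09 CPM, edgeR adjusted p = 0.0236). Summed CD8 and NK markers were 10.8 to 15.1 and 15.1 to 16.2 CPM, with Ncr1 and Klrb1c at 0 and 1 of the 4 tested, Eomes, higher (0.10 ± 0.06 to 1.55 ± 0.60 CPM, edgeR adjusted p = 0.000946). The part of these shifts in the results was not tested. In bulk RNA, fewer cells of a type and less RNA per cell cannot be told apart. Counts of 4 Y-linked genes were 11376 in control replicate 3 and 5147 in KO replicate 3, and 1 to 3 in the remaining libraries. Replicate 3 of each group thus held male cells, and the spread between libraries includes a difference in sex.

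Most mitochondrial ribosomal protein genes had a lower fitted level in KO than in control, and 30 of them passed the test. Of the 77 members that passed the filter on low counts, 61 (79.2%) had a log2 fold change below 0, against 49.3% of the 14268 genes tested. The median log2 fold change was -0.28 (quartiles -0.55 and -0.03), against 0.01 over all tested genes. By edgeR's quasi-likelihood test with an adjusted p under 0.05, which is what called means here, 30 members fell and 5 rose. The members called in either direction (45.5%) were no larger a share than over all tested genes (46.1%).

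The calls among the members were mostly in 1 direction and mostly under 2-fold. The 30 members that fell made 39.0% of the 77, against 22.9% of all tested genes called lower, and the 5 that rose made 6.49%, against 23.2%. Among the 9807 tested genes that averaged 5 CPM or more, a level nearer to that of the members, 51.3% were called, 27.6% lower and 23.7% higher. Large changes were fewer than in the background: 3 members (3.90%) fell at least 2-fold, against 11.0% of all tested genes (10.7% of those at 5 CPM or more). The largest increase among the members, that of Mrpl33, was under 2-fold, where 11.3% of all tested genes (6.92% of those at 5 CPM or more) rose at least 2-fold. Every KO library lay below every control library for 32 members (41.6%, background 28.0%, or 32.5% at 5 CPM or more) and above for 8 (10.4%, background 29.9%, or 29.6%). The interquartile range of the members' log2 fold changes was 0.52, against 1.07 over all tested genes.

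**Figure D1:**
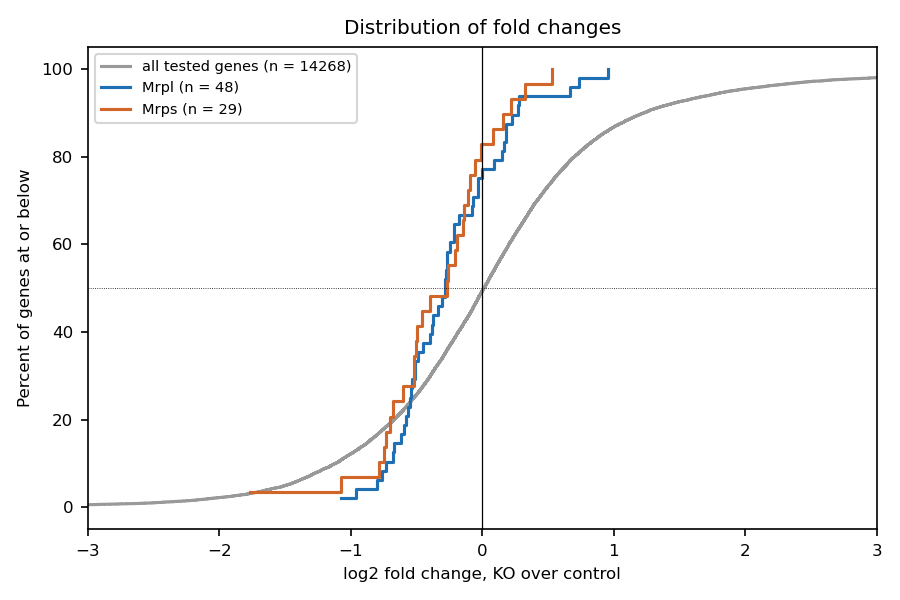
Cumulative percent of genes (vertical axis) at or below each log2 fold change, KO over control (horizontal axis), for all tested genes, the 48 tested Mrpl and the 29 tested Mrps. The lines of both subunits are steeper than that of all genes and cross the 50% level at -0.28 (Mrpl) and -0.27 (Mrps), against 0.01.

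The large and small subunits gave medians close to each other. Of 48 tested Mrpl, 17 fell and 3 rose, with a median log2 fold change of -0.28. Of 29 Mrps, 13 fell and 2 rose, with a median of -0.27. Sorting the members by where the protein sits in the ribosome rather than by symbol gave 18 lower and 3 higher of 50 in the large subunit and 11 lower and 2 higher of 26 in the small subunit. The 46 members with a bacterial counterpart had 17 lower and 4 higher (median -0.27), and the 30 members without one had 12 lower and 1 higher (median -0.32). No difference between these groups was tested.

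Summed over the members, the groups overlapped. The members together took 3345, 3937 and 2930 CPM in control replicates 1, 2 and 3, and 3089, 3057 and 2812 CPM in KO replicates 1, 2 and 3. Control replicate 3 lay below KO replicates 1 and 2. The Mrpl sum was 2251 ± 339 CPM in control and 2035 ± 87.1 in KO, and the Mrps sum 1153 ± 168 and 951 ± 66.3 (SD, n = 3). The ratio of the Mrpl sum to the Mrps sum was 1.92, 1.97 and 1.96 in control and 2.07, 2.15 and 2.21 in KO, and here the groups did not overlap. Such sums weigh genes by their level. The Mrpl sum holds 17 members that fell and 3 that rose, namely Mrpl33 (mean 92.0 CPM in control, 178 in KO), Mrpl10 (57.8 and 96.5) and Mrpl52 (60.9 and 96.6). The Mrps sum holds 13 members that fell and 2 that rose, namely Mrps21 (38.0 CPM in control, 54.9 in KO) and Mrps14 (54.0 and 67.6). No ratio without the members that rose was taken, so the ratio does not describe the subunits as wholes. Sums and ratios are descriptions and were not tested, since 3 against 3 libraries cannot give an exact permutation p below 0.1.

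**Figure D2:**
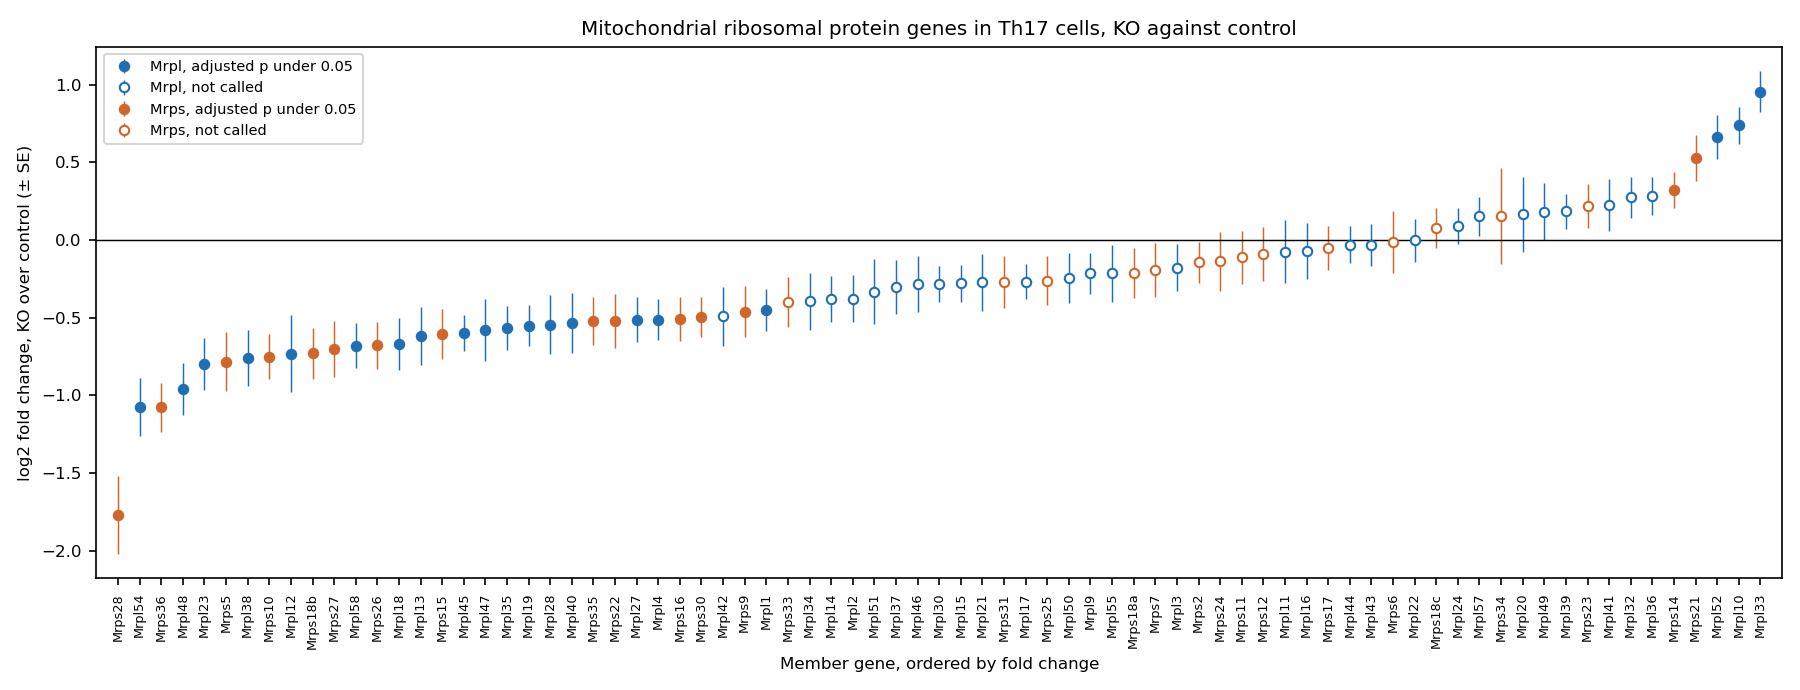
Log2 fold change, KO over control, with its SE for each of the 77 tested members, ordered along the horizontal axis, with Mrpl and Mrps in different colours and filled points for an adjusted p under 0.05. The points run from -1.77 (Mrps28) to 0.96 (Mrpl33), and 61 of 77 lie below 0.

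The steepest decrease was in Mrps28, a small-subunit protein named as the relative of bacterial S1. Its gene spans 121773 bases at chr3:8802146-8923918 on the minus strand. Mrps28 had 17.1, 20.1 and 15.4 CPM in control replicates 1, 2 and 3 and 7.18, 4.19 and 4.07 CPM in KO replicates 1, 2 and 3. Every KO library lay far below every control library. The mean went from 17.6 ± 2.35 to 5.14 ± 1.76 CPM, 29.3% of control (log2 fold change -1.77, SE 0.25, edgeR adjusted p = 0.00095), and the counts behind it ran from 80 to 973 reads.

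Mrpl54 encodes a large-subunit protein with no bacterial counterpart. It had 36.5, 44.1 and 30.1 CPM in control and 20.6, 17.2 and 14.6 CPM in KO, with no overlap (36.9 ± 6.98 to 17.5 ± 2.996, 47.4% of control, log2 fold change -1.08, SE 0.19, edgeR adjusted p = 0.00219). Mrps36, the oxoglutarate dehydrogenase adaptor, had 28.0, 30.8 and 24.0 CPM in control and 14.9, 12.2 and 12.2 CPM in KO (log2 fold change -1.08, SE 0.16, edgeR adjusted p = 0.00108). Its groups did not overlap either, but 17.3% of its 50-base stretches also occur in other genes, most often the pseudogene Mrps36-ps1. Its level is uncertain to that extent. These and Mrps28 were the 3 members that fell at least 2-fold.

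Mrpl48 and Mrpl38 encode proteins of the central protuberance, the crest of the large subunit that faces the small one. Mrpl48 had 32.7, 38.5 and 36.6 CPM in control and 21.5, 19.4 and 14.5 CPM in KO (log2 fold change -0.96, SE 0.17, edgeR adjusted p = 0.00229). Mrpl38 had 39.3, 41.8 and 29.7 CPM in control and 26.0, 19.6 and 19.8 CPM in KO (log2 fold change -0.76, SE 0.18, edgeR adjusted p = 0.00853). In both genes the groups stood apart. For Mrpl48, 13.7% of its 50-base stretches are shared with other genes, most often Rab6a. Mrpl23, a protein near the exit of the tunnel through which the new chain leaves, had 27.2, 33.3 and 30.1 CPM in control and 18.9, 19.3 and 13.7 CPM in KO, again with no overlap (log2 fold change -0.80, SE 0.17, edgeR adjusted p = 0.00513). Other genes, most often the pseudogene Mrpl23-ps1, share 11.8% of the 50-base stretches of Mrpl23.

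Among small-subunit members, Mrps5 and Mrps10 have bacterial counterparts, and Mrps18b is 1 of 3 paralogs. Mrps5 had 55.9, 61.5 and 46.7 CPM in control and 38.5, 33.0 and 23.8 CPM in KO (log2 fold change -0.78, SE 0.19, edgeR adjusted p = 0.00947). Mrps10 had 63.3, 63.1 and 50.3 CPM in control and 39.98, 32.9 and 32.0 CPM in KO (log2 fold change -0.75, SE 0.15, edgeR adjusted p = 0.00348). KO stood below control in every library for both. Mrps18b had 35.6, 33.7 and 27.2 CPM in control and 22.8, 17.6 and 17.7 CPM in KO, with no overlap (log2 fold change -0.73, SE 0.16, edgeR adjusted p = 0.00703). However, 30.2% of its 50-base stretches are shared with other genes, most often Gm16279.

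The paralogs of Mrps18b did not pass the test. Mrps18a, whose protein sits in the large subunit, went from 33.6 ± 6.56 to 29.0 ± 0.61 CPM (log2 fold change -0.21, edgeR adjusted p = 0.308). Mrps18c, in the small subunit, had 41.3 ± 4.02 and 43.6 ± 3.95 CPM (log2 fold change 0.08, edgeR adjusted p = 0.643), and its sign changed without control replicate 1 or control replicate 3. Mrps30, the other large-subunit protein with an Mrps symbol, went down from 45.6 ± 2.17 to 32.3 ± 3.51 CPM (log2 fold change -0.50, SE 0.13, edgeR adjusted p = 0.0126). Without KO replicate 3 its log2 fold change was -0.41 and its adjusted p 0.0519.

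The 5 members that rose were led by Mrpl33, the counterpart of bacterial L33 in the large subunit, at chr5:31596935-31664384 on the plus strand. Mrpl33 had 89.2, 101.1 and 85.7 CPM in control replicates 1, 2 and 3 and 153.0, 184.6 and 197.8 CPM in KO replicates 1, 2 and 3. The lowest KO library stood well above the highest control library. The mean was 92.0 ± 8.06 CPM in control and 178 ± 23.03 in KO, 194% of control (log2 fold change 0.96, SE 0.13, edgeR adjusted p = 0.000819).

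Mrpl10, which forms the base of the large-subunit stalk where translation factors dock, had 55.6, 64.9 and 53.0 CPM in control and 90.2, 102.1 and 97.0 CPM in KO. It did not overlap between the groups (57.8 ± 6.26 to 96.5 ± 5.96, 167% of control, log2 fold change 0.74, SE 0.12, edgeR adjusted p = 0.00161), and 14.1% of its exonic bases overlap other genes, mainly Gm11574. Mrpl12, the stalk protein that Mrpl10 anchors and that also binds the mitochondrial RNA polymerase, was called in the other direction. It had 47.9, 61.1 and 29.9 CPM in control and 33.4, 26.2 and 24.0 CPM in KO, and KO replicate 1 lay above control replicate 3 (log2 fold change -0.73, SE 0.25, edgeR adjusted p = 0.0388). This call was lost without control replicate 1 (-0.79, adjusted p = 0.0831), without control replicate 2 (-0.49, adjusted p = 0.140), without KO replicate 2 (-0.68, adjusted p = 0.122), without KO replicate 3 (-0.64, adjusted p = 0.116) and with scaling to library size only (-0.64, adjusted p = 0.0582). Mrpl11, the remaining stalk-base protein, had 33.0 ± 9.77 and 31.4 ± 2.39 CPM (log2 fold change -0.08, edgeR adjusted p = 0.781), and its sign changed without control replicate 2 and with scaling to library size only.

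Mrpl52 is a large-subunit protein without a bacterial counterpart. It had 55.1, 73.7 and 54.0 CPM in control and 89.3, 99.7 and 100.8 CPM in KO, with no overlap (log2 fold change 0.66, SE 0.14, edgeR adjusted p = 0.00577). The call was lost without control replicate 1 (0.52, adjusted p = 0.0570). Mrps21 and Mrps14 are small-subunit proteins with bacterial counterparts. Mrps21 had 36.5, 45.5 and 32.1 CPM in control and 51.2, 58.6 and 54.9 CPM in KO, also with no overlap (log2 fold change 0.53, SE 0.15, edgeR adjusted p = 0.0187). That call was lost without control replicate 1 (adjusted p = 0.133), control replicate 3 (adjusted p = 0.0761), KO replicate 2 (adjusted p = 0.0778) or KO replicate 3 (adjusted p = 0.0516).

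Mrps14 had 52.7, 53.3 and 56.1 CPM in control and 65.5, 75.3 and 62.0 CPM in KO (log2 fold change 0.32, SE 0.12, edgeR adjusted p = 0.0463). Its groups did not overlap, but it stood just inside the threshold and its call was lost whichever library was left out, with log2 fold changes of 0.24 (without control replicate 1) to 0.38 (without KO replicate 3) and adjusted p-values up to 0.235. DESeq2 gave it an adjusted p of 0.0644. Among members with lower levels, Mrpl40 was just inside the threshold (log2 fold change -0.54, edgeR adjusted p = 0.0470) and Mrpl42 just outside (-0.49, edgeR adjusted p = 0.0615).

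**Figure D3:**
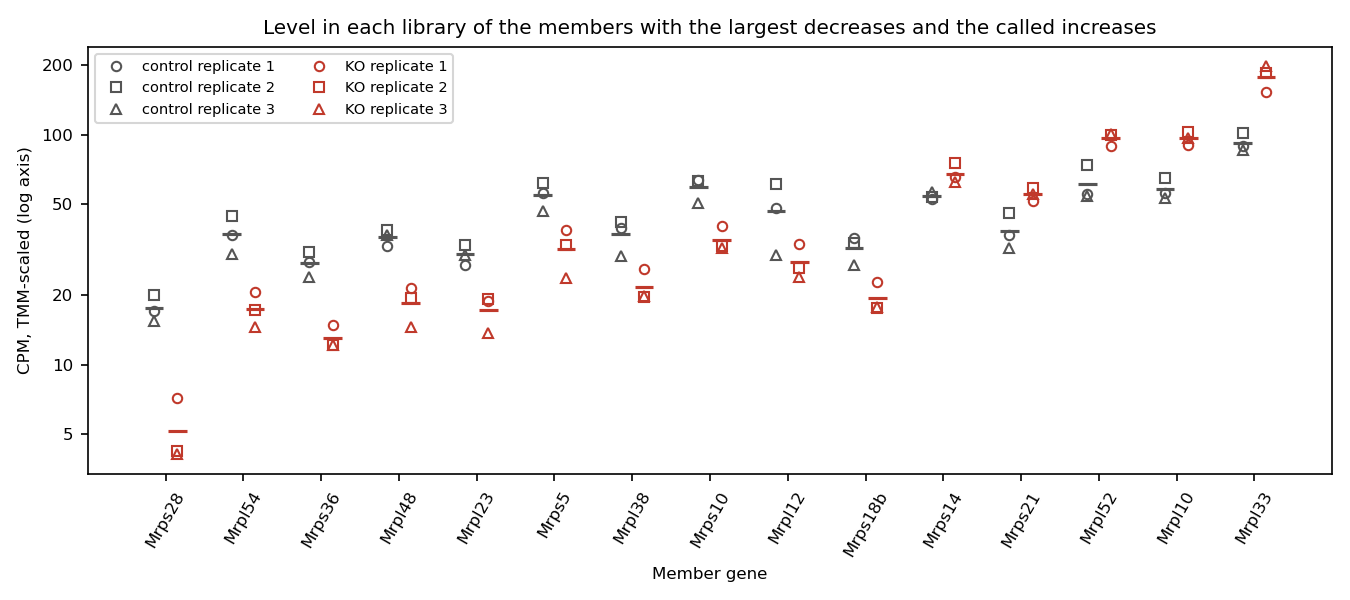
Level in CPM (vertical log axis) of the 10 members with the largest called decreases and the 5 members with called increases, with 1 symbol per library and a bar at each group's mean. Groups overlap in 1 of these genes, Mrpl12, where KO replicate 1 at 33.4 CPM lies above control replicate 3 at 29.9 CPM.

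The other members that fell have a range of roles. Mrpl45, which tethers the ribosome to the inner membrane, dropped from 93.2 ± 7.10 to 61.6 ± 5.03 CPM (log2 fold change -0.60, edgeR adjusted p = 0.00342). Mrpl58, a peptidyl-tRNA hydrolase built into the large subunit that can release stalled chains, fell from 35.6 ± 4.26 to 22.2 ± 2.04 CPM (-0.68, edgeR adjusted p = 0.00514). The remainder were Mrps27, a pentatricopeptide repeat protein, and Mrps26, Mrpl18, Mrpl13, Mrps15, Mrpl47, Mrpl35, Mrpl19, Mrpl28, Mrpl40, Mrps35, Mrps22, Mrpl27, Mrpl4, Mrps16, Mrps9 and Mrpl1. In that list, Mrpl19 shared 37.0% of its 50-base stretches with other genes (most often Gcfc2), Mrpl27 26.9% (Gm6304) and Mrpl47 23.3% (Actl6a). Their levels are uncertain to that extent. Over all 30 that fell, log2 fold changes ran from -1.77 to -0.45 with a median of -0.61, and in 26 of the 30 no library overlapped. The calls rest on these same libraries, so gaps between groups are likely in called genes and add no separate evidence. The share without overlap among all genes called lower was not taken. Of the 42 tested members that were not called, 31 were below 0 and 33 had overlapping groups.

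Levels can be compared between genes only per length. The length used joins all annotated exons of a gene and can exceed that of the transcript made, so the order depends on the annotation. On the scale of CPM per kilobase of exon, the highest members by the mean of both groups were Mrpl52 (54.9 in control, 87.1 in KO), Mrps21 (51.5 and 74.3) and Mrpl10 (33.8 and 56.5), all of which rose. By that mean Mrpl33, at 92.0 CPM in control and 178 CPM in KO but with 7326 exonic bases, had rank 34. That mean joins groups whose levels differ, and in control alone 10 members stood above Mrpl10. They included Mrpl18 (49.97 in control, 31.4 in KO), Mrpl54 (44.7 and 21.2) and Mrpl45 (35.9 and 23.7), all of which fell. At the low end, Mrpl53 had 0 counts in every library and was not tested, and 88.0% of its exonic bases overlap other genes, mainly Gm42688. Gm42688 held only 0.52 ± 0.05 CPM in control and 0.59 ± 0.19 in KO. Mrps34 was the lowest tested member at 5.80 ± 1.83 and 6.50 ± 1.89 CPM, with 77.8% of its exonic bases overlapped by other genes, and its level is uncertain. Of all members, 11 shared over 20% of their 50-base stretches with other genes.

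The spread within a group ran through the members together. Control replicate 2 was the highest control library in 72 of 77 members, where it was highest in 33.0% of all tested genes, and control replicate 3 was the lowest in 62, against 35.2%. Among KO libraries, replicate 1 was highest in 45 members (background 36.4%) and replicate 3 lowest in 55 (background 37.1%). KO replicate 1 was also the KO library with the most Rtf1. By replicate number, KO was below control in 56, 65 and 47 of the 77 members for numbers 1, 2 and 3, with median log2 ratios of -0.21, -0.49 and -0.25. In 46 members KO was lower in all 3 pairs, and in 10 it was higher in all 3. Counts by pair were not taken over all tested genes, so these have no background to be read against.

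**Figure D4:**
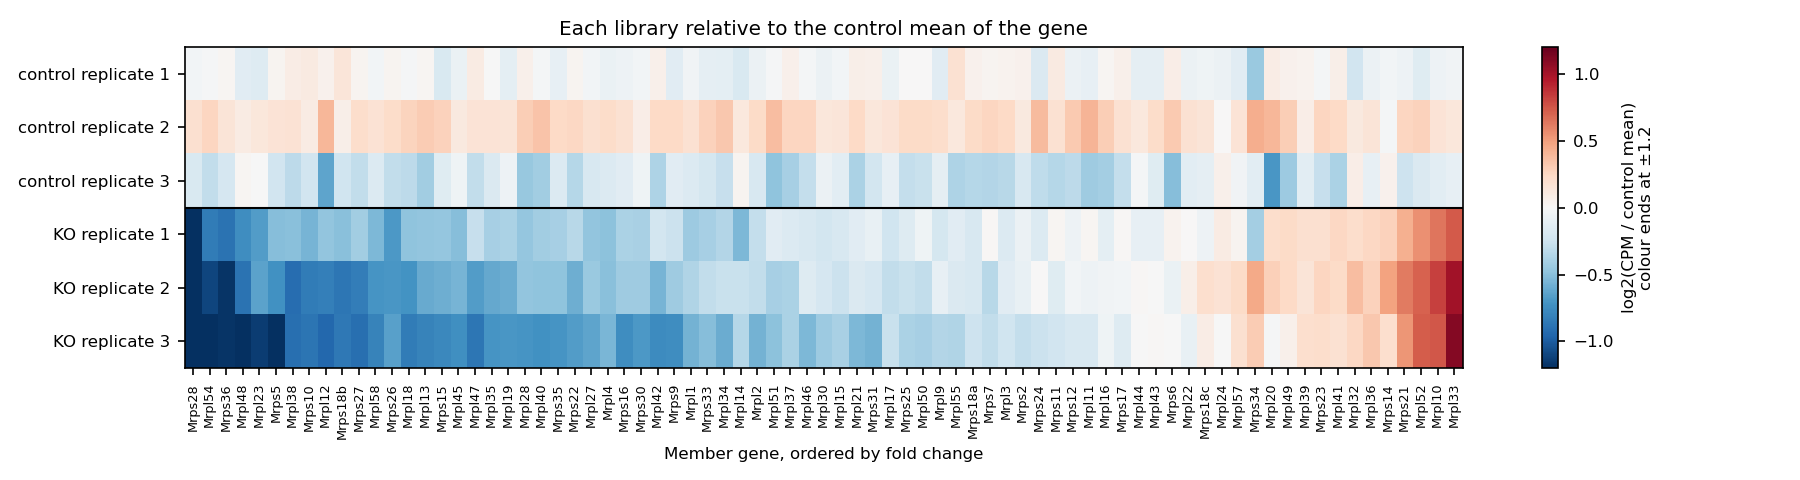
Colour gives log2 of a library's CPM over the gene's control mean for 77 members (columns, ordered by fold change) in the 6 libraries (lines), with colours ending at ±1.2. Control replicate 2 is the reddest control library, as the highest of its group in 72 of 77 members.

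Counts of called members moved with the library left out. Members called lower and higher were 22 and 2 without control replicate 1, 19 and 5 without control replicate 2, and 46 and 3 without control replicate 3. Without KO replicate 1 they were 28 and 4, without KO replicate 2 they were 14 and 3, and without KO replicate 3 they were 17 and 3. Without both libraries that held Y-linked counts they were 32 and 5. The background moved too. Of all tested genes, 19.1, 20.6 and 25.8% were called lower without control replicates 1, 2 and 3. Without KO replicates 1, 2 and 3 these shares were 20.8, 15.1 and 16.9%, and without both replicates 3 it was 21.7%. The shares called higher, in the same order, were 15.7, 19.7, 23.35, 20.4, 16.0, 17.0 and 22.7%. The 13 members called lower in each of the 6 fits without 1 library were Mrps28, Mrpl54, Mrps36, Mrpl48, Mrpl23, Mrps5, Mrpl38, Mrps10, Mrps18b, Mrpl58, Mrps26, Mrpl18 and Mrpl45, and the 2 called higher in each were Mrpl10 and Mrpl33. The other 20 lost their call in at least 1 of these fits. The share of all called genes that kept their call in these fits was not taken. The counts kept and lost thus have no background to be read against. Of the 35 called members, 0 changed sign under the alternatives run, and 14 of the uncalled members did. Called members were selected for changes far from 0 in these same libraries, so this difference follows largely from the selection and is no separate support.

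**Figure D5:**
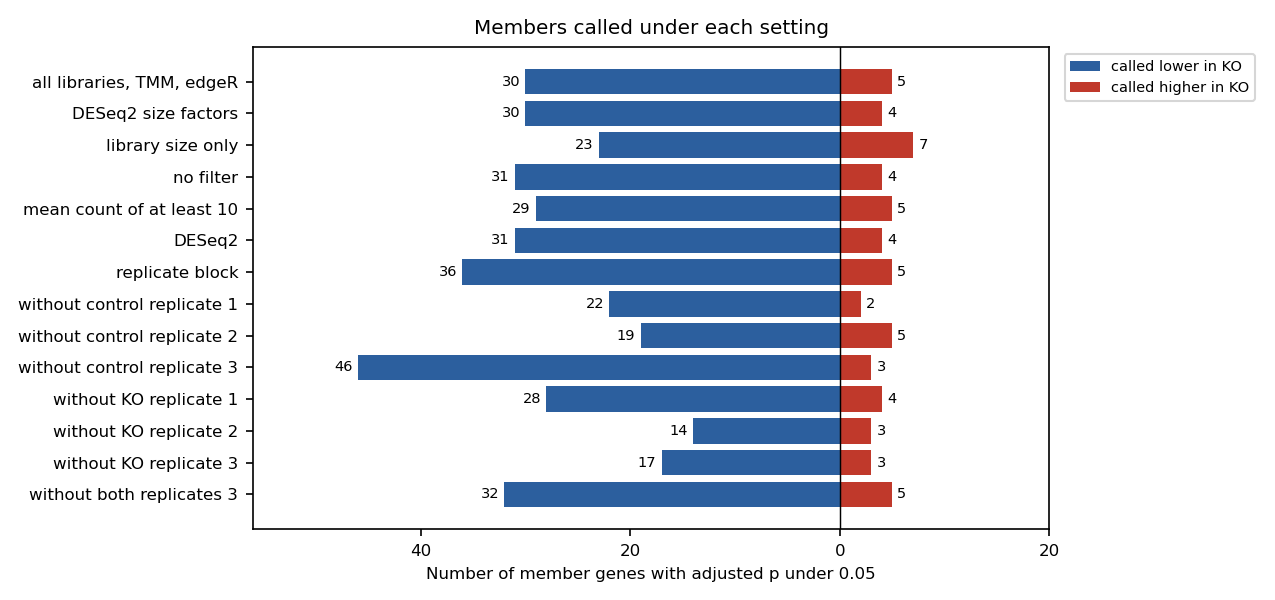
Number of members called lower (left) and higher (right) in KO at an adjusted p under 0.05 under each setting, 1 bar per setting. The number called lower runs from 14 without KO replicate 2 to 46 without control replicate 3, and the number called higher from 2 to 7.

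Structural proteins of the same ribosome with other symbols numbered 5 in the table, and 3 of them fell (median log2 fold change -0.51), or 2 without control replicate 2 or KO replicate 3 and 1 without KO replicate 2. Gadd45gip1, another protein of the large subunit, went from 18.9 ± 4.42 down to 9.61 ± 2.58 CPM (-0.98, edgeR adjusted p = 0.0106). Ptcd3, a pentatricopeptide repeat protein of the small subunit, had 108 ± 21.02 CPM in control and 67.4 ± 11.7 CPM in KO and also fell (-0.68, edgeR adjusted p = 0.0133), a call lost without KO replicate 2 (-0.67, adjusted p = 0.0513). Chchd1 of the small subunit fell from 57.1 ± 8.87 to 40.1 ± 3.15 CPM (-0.51, edgeR adjusted p = 0.0176), a call lost without control replicate 2 (-0.39, adjusted p = 0.0524), KO replicate 2 (-0.47, 0.0754) or KO replicate 3 (-0.475, 0.0619). Dap3, a small-subunit GTP-binding protein (log2 fold change 0.13, edgeR adjusted p = 0.411), and Aurkaip1 (-0.20, edgeR adjusted p = 0.304) were not called.

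Factors that assemble the ribosome or modify its rRNA were called both ways, with 5 of 25 (20%) lower and 5 (20%) higher, near the shares over all tested genes (22.9% and 23.2%), and a median of -0.13. The number lower was 1 without KO replicate 2, 3 without control replicate 2 or KO replicate 3 and 8 without control replicate 3, and the number higher was 2 without control replicate 1 and 3 without control replicate 3, KO replicate 2 or KO replicate 3. Tfb1m, which dimethylates small-subunit rRNA, fell from 12.4 ± 1.06 to 4.29 ± 1.05 CPM (-1.53, edgeR adjusted p = 0.00108). Mettl15, another methyltransferase of small-subunit rRNA (-1.06, edgeR adjusted p = 0.0147), and Fastkd2, an RNA-binding protein (-0.80, edgeR adjusted p = 0.0261), also fell. The Mettl15 call was lost without KO replicate 2 (-0.98, adjusted p = 0.0609). The Fastkd2 call was lost without control replicate 1 (-0.81, adjusted p = 0.0684), control replicate 2 (-0.66, 0.0916), KO replicate 2 (-0.78, 0.0859) or KO replicate 3 (-0.63, 0.0805). Malsu1, which binds Mrpl14 on the assembling large subunit, rose from 24.6 ± 2.65 to 42.2 ± 3.81 CPM (0.78, edgeR adjusted p = 0.00234). Nsun4 (0.755, edgeR adjusted p = 0.00230) and Mterf4 (0.66, edgeR adjusted p = 0.00676), which form a complex, rose as well, the call of Mterf4 being lost without control replicate 1 (0.51, adjusted p = 0.0534).

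Of 16 translation factors and mitochondrial mRNA-binding proteins, 3 (18.8%) fell and the others were not called, with a median of -0.16, where 22.9% of all tested genes were called lower. Leaving out control replicate 3 gave 6 lower, and leaving out KO replicate 2 gave 2. With the replicate number as a block, 5 were lower and 1 higher, the added ones being Gfm1 (adjusted p = 0.0384), Oxa1l (0.0426) and, upward, Mtif2 (0.0347). Those that fell were Lrpprc, which stabilises mitochondrial mRNA (129.8 ± 24.1 to 69.3 ± 15.5 CPM, log2 fold change -0.90, edgeR adjusted p = 0.00513), the elongation factor Tsfm (-0.73, edgeR adjusted p = 0.0101) and the release factor homologue Mtrf1 (-0.70, edgeR adjusted p = 0.0190, but -0.64 and 0.0752 without KO replicate 2). Over all tested genes, 22.9% were called lower and 23.2% higher. Of 12 genes for transcribing and copying mitochondrial DNA, 3 fell, near that share, and 1 rose, below that share (median 0.11). Those were the topoisomerase Top1mt (-1.73, edgeR adjusted p = 0.00250), the exonuclease Mgme1 (-0.86, edgeR adjusted p = 0.00497), the DNA-packaging factor Tfam (-0.69, edgeR adjusted p = 0.00209) and, upward, the polymerase subunit Polg2 (0.63, edgeR adjusted p = 0.0219), whose call was lost without control replicate 1 (0.58, adjusted p = 0.0716), control replicate 2 (0.47, 0.0628), KO replicate 2 (0.57, 0.0871) or KO replicate 3 (0.64, 0.0531).

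Of 10 tested nuclear regulators, 4 (40%) fell and the others were not called, with a median of -0.40. Of all tested genes, 22.9% were called lower, and of those at 5 CPM or more 27.6%. The number of regulators called lower was 8 without control replicate 3 and 6 with the replicate number as a block. It was 3 without KO replicate 2 or KO replicate 3. Gabpb1, a subunit of the ETS-family factor GABP, fell from 60.5 ± 6.12 to 36.0 ± 1.71 CPM (-0.75, edgeR adjusted p = 0.00163), and Gabpb2 also fell (-0.465, edgeR adjusted p = 0.0112, but -0.39 and 0.0502 without KO replicate 3). Myc fell from 311.7 ± 29.5 to 187.5 ± 14.6 CPM (-0.73, edgeR adjusted p = 0.00193). The coactivator Ppargc1b fell from 4.39 ± 1.07 to 1.04 ± 0.95 CPM (-2.05, edgeR adjusted p = 0.0168, but -1.77 and 0.0700 without KO replicate 2), and its relative Ppargc1a was at 0 in all libraries. Nrf1 was not called (-0.49, edgeR adjusted p = 0.0515), although it was with the replicate number as a block (adjusted p = 0.0238).

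Of 20 tested genes for protein import into mitochondria, 6 (30.0%) fell and 1 rose, with a median of -0.29. Of all tested genes, 22.9% were called lower. Among those at 5 CPM or more it was 27.6%, near the share of the import genes. The number of import genes called lower was 12 without control replicate 3 and 10 without both replicates 3. It was 3 without control replicate 2, KO replicate 2 or KO replicate 3. The chaperone Hspa9 fell from 885 ± 84.2 to 417 ± 46.5 CPM (-1.09, edgeR adjusted p = 0.000585), the outer-membrane channel Tomm40 fell (-0.84, edgeR adjusted p = 0.00859), and so did the inner-membrane receptor Timm50 (-0.765, edgeR adjusted p = 0.0158), whose call was lost without control replicate 2 (-0.59, adjusted p = 0.0568), KO replicate 2 (-0.72, 0.0644) or KO replicate 3 (-0.68, 0.0558). Tomm7 rose (0.47, edgeR adjusted p = 0.0181), a call lost without control replicate 1 (0.36, adjusted p = 0.151), control replicate 3 (0.31, 0.0975), KO replicate 2 (0.47, 0.0588) or KO replicate 3 (0.46, 0.0527). Of the 13 protein-coding genes that mitochondrial ribosomes translate, 2 (15.4%) rose, against 23.2% of all tested genes, and the others were not called (median 0.18). With the replicate number as a block, 3 (23.1%) were higher, against 27.0% of all tested genes. The pair were mt-Nd4 (0.76, edgeR adjusted p = 0.0170, but 0.0512 without KO replicate 1 and 0.0560 without KO replicate 3) and mt-Nd5 (0.71, edgeR adjusted p = 0.0346, but 0.0605 and 0.0712 without control replicates 1 and 2 and 0.0942 and 0.104 without KO replicates 1 and 3). The mitochondrial rRNAs were not analysed here.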

How the data were processed

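RNA of 3 control and 3 KO Th17 cultures was sequenced. Per the submitters' processing notes, STAR, featureCounts, DESeq2 and the mm10 build were used; versions, annotation and strand setting are not given in the sources used here, so reads of overlapping genes cannot be told apart. The authors deposited raw counts, whole numbers under gene symbols. Groups and replicate numbers came from the sample titles. Counts were tested with edgeR 4.0.16 (quasi-likelihood, TMM factors, filterByExpr, no covariate) in R 4.3.3 over 14268 genes, with Benjamini-Hochberg adjustment, and the SE is the absolute log2 fold change over the square root of F. The biological coefficient of variation was 0.212. Coordinates, exon overlap and shared 50-base stretches came from GENCODE M21 (GRCm38, that is mm10). Counts carry no stated molecular identifiers. The member rule reads symbols only, but this gene family and the lists were picked with earlier results of these data known. Named members are the 10 largest called changes each way, the 3 highest per length, symbols that mislead or have paralogs, and members not tested; others, such as those at the threshold, at the stalk or kept in every fit, were named after their values were seen. Companion genes are all those called, or the 3 largest each way. Alternatives were DESeq2 1.42.0, other scalings and filters, a replicate block and each library left out; leaving out both replicates 3 was added after seeing the data. Equal replicate numbers had correlated deviations (r = 0.23, 0.17 and 0.39 across genes, which are not independent replicates) and were read as pairs, although control replicate 2 had its highest r with KO replicate 1 (0.21) and the labels leave the meaning of the number unstated.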

Additional observations from a re-analysis of the deposited data

How the results depend on the processing

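Rtf1, the called members and the members' median kept their direction under the alternatives run, and more members were called lower than higher in each. The alternatives reuse the same libraries, so called members had little room to change sign. Over all genes, lower and higher calls were near each other (3269 and 3305) and their order changed: DESeq2 size factors gave 3311 and 3236 and DESeq2 gave 3448 and 3298. Leaving out each library in turn gave 17 to 49 called members, 14 to 46 called lower and 2 to 5 called higher, 7 to 30 Mrpl and 7 to 16 Mrps called lower, and a median log2 fold change of the members of -0.45 (without control replicate 3) to -0.195 (without control replicate 2). Calls over all genes ranged from 4460 to 7050 (6574 with all libraries), with 2170 to 3700 lower and 2290 to 3350 higher, called companion genes from 18 to 46 (33 with all libraries), and the log2 fold change of Rtf1 from -1.69 to -1.27. With the replicate block, 41 members were called, 36 lower and 5 higher, out of 7628 calls over all genes; no call was lost, and Mrpl42 (adjusted p = 0.0112), Mrps33 (0.0331), Mrpl34 (0.0427), Mrpl14 (0.0407), Mrpl2 (0.0298) and Mrpl30 (0.0448) were gained. Scaling to library size only moved the median log2 fold change of all genes from 0.01 to 0.10 and gave 23 members lower and 7 higher, with a member median of -0.19. DESeq2 called 31 lower and 4 higher. The lowest counts of tested members were 70 reads (Mrps34, control replicate 1) and 80 reads (Mrps28, KO replicate 3), which bounds the precision of those levels.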
